A study of Mus musculus with 6 samples.

Results

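The mouse microRNAs (miRNAs) mmu-miR-15a-5p, mmu-miR-15b-5p, mmu-miR-16-5p, mmu-miR-195a-5p and mmu-miR-497-5p, written below without the species prefix, form 1 seed family. Their levels in mouse kidney were compared between 2 ages. The members were taken by their exact names in the array files, and all 5 were present among the 1247 mouse miRNAs of the array. Kidney RNA of male C57BL/6 mice, an inbred laboratory strain, was measured at 2 months (young, 3 arrays) and at 20 months (aged, 3 arrays). No allele or agent is named for either group, and the series describes separate RNA preparations without tying them to animals. The p-values therefore rest on how far preparations of 1 age differed, and part of that can be technical. Each preparation was labelled with the dye Cy3 and hybridised to its own 1-colour Agilent array.

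A miRNA guides Argonaute proteins to messenger RNAs, mainly through its seed, the bases 2 to 8 from its 5′ end. miRNAs with the same seed can bind the same sites, so the family is read together. It is best known for repressing cyclins D and E, other drivers of the G1 to S step and the survival factor Bcl2. The miR-15a and miR-16-1 locus is known as a tumour suppressor that is lost in chronic lymphocytic leukaemia. miR-15 members are also known to restrain the division of heart muscle cells after birth.

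The mature sequences are shown because the seed defines the family and the bases after it are what a probe must tell apart. All 5 members were matched in the RefSeq miRNA table (GRCm38.p6), where miR-497-5p has the newer name miR-497a-5p. Capitals mark the seed AGCAGCA.
miR-15a-5p: uAGCAGCAcauaaugguuugug
miR-15b-5p: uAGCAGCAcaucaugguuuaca
miR-16-5p: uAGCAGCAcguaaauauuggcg
miR-195a-5p: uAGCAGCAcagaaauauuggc
miR-497-5p: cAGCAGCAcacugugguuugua
Aligned from the 5′ end, miR-15a-5p and miR-15b-5p were identical at 18 of 22 positions, and all 4 differences lay after base 9. Counted from 1 at the 5′ end with the base of miR-15a-5p first, these were A12C, G20A, U21C and G22A. miR-16-5p and miR-195a-5p were closer still, with 19 of 21 positions identical and the differences G10A and U11G (miR-16-5p first). miR-16-5p and miR-497-5p shared 11 of 22 positions. How much signal the probes of one member take up from another was not tested for these pairs.

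The members come from 3 clusters. miR-15a-5p lies at chr14:61632075-61632096 on the minus strand, and its hairpin is 54 bases from Mir16-1, within the bounds of the long noncoding RNA gene Dleu2. miR-15b-5p lies at chr3:69009775-69009796 on the plus strand, and its hairpin is 66 bases from Mir16-2, within the bounds of Smc4, which encodes a condensin subunit. miR-497-5p at chr11:70234730-70234751 and miR-195a-5p at chr11:70235062-70235082 lie on the plus strand with 241 bases between their hairpins. The table gives no exons, so the position within the host genes is not stated further.

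miR-16-5p is made from 2 hairpins. They are shown because the same mature sequence, in capitals, sits in 2 different loops, so its signal sums both loci while each opposite arm belongs to 1 locus.
Mir16-1: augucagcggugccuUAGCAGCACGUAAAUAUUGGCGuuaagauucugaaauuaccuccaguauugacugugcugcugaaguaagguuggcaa
Mir16-2: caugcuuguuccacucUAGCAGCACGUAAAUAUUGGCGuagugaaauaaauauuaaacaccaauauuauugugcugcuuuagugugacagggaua
Mir16-1 lies at chr14:61631880-61631972 (minus strand) and Mir16-2 at chr3:69009902-69009996 (plus strand).

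Each array had 177 to 209 miRNAs well above background and 0 saturated spots. The aged arrays were less alike than the young ones, with correlations over the tested miRNAs of 0.972 to 0.989 against 0.998, and leaving out aged array 1 raised the count of lower calls over all miRNAs from 7 to 27. Each array was scaled by its 75th percentile over 315 detected probes, which was 1171 to 2054 intensity units, and levels are given as log2 of intensity relative to it. A level of 0 thus equals that percentile. Because their probes differ, different miRNAs are set side by side only as array signal and not as amounts of RNA. The number of arrays limits the precision. The 6 kidney epithelium miRNAs looked up (miR-192-5p, miR-194-5p, miR-204-5p, miR-30a-5p, miR-200b-3p and miR-10b-5p) were well above background on all 6 arrays. Of 5 miRNAs known from other organs, miR-122-5p (liver), miR-133a-3p (muscle) and miR-9-5p (brain) were on 0 arrays and miR-1a-3p (muscle) on 4. miR-124-3p, known from neurons, was on the 3 aged arrays alone, at -3.92, -3.76 and -3.87, with the young arrays at the floor of -5.22. It passed the detection filter through the aged arrays alone and its young values were set by the floor, so no p-value is given. The young arrays and aged array 1 lay in row 1 of the slide, and aged arrays 2 and 3 in row 2.

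Between the ages 4 of the 5 members differed by no more than 0.09 (log2), and miR-15b-5p stood lower in every aged preparation. None of the 5 members passed the limma threshold (Benjamini-Hochberg adjusted p of 0.05 over all 193 miRNAs tested). Of the members 0 rose and 0 fell, where 7.77% of the tested miRNAs passed, 4.15% higher and 3.63% lower in aged kidney. At an unadjusted p under 0.05 the count was 1 of 5, miR-15b-5p, against 25.4% of all tested miRNAs, or 15.5% counting the lower ones. The levels of the ages did not overlap for 2 of 5 members, both lower in aged kidney, and for 0 of 5 higher, against 20.2% and 10.4% of all tested miRNAs. All 5 members passed the filter on dim miRNAs, with both probes of each well above background on all 6 arrays. The median difference of the members was -0.03 (log2), beside -0.08 over all tested miRNAs. In whole kidney, fewer cells of a type and less RNA per cell cannot be told apart.

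miR-15a-5p, the partner of miR-16-1 in Dleu2, had levels of 1.64, 1.61 and 1.78 on young arrays 1 to 3 and 1.69, 1.82 and 1.72 on aged arrays 1 to 3. The groups overlapped. Its means were 1.68 ± 0.09 (SD, n = 3) and 1.74 ± 0.07 (SD, n = 3), a difference of 0.07 ± 0.08 (log2 ± SE, 1.05-fold; limma adjusted p = 0.632). The 95% interval of the difference ran from -0.13 to 0.27. The size moved with the scaling, to 0.18 in the authors' values, 0.21 with the median of detected probes, 0.27 without scaling and 0.48 with the 75th percentile over all probes.

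miR-16-5p, the member made from both clusters, read 1.97, 1.87 and 2.01 on the young arrays against 1.90, 2.01 and 2.05 on the aged ones. The groups overlapped, with the highest and the second lowest level in aged kidney. The difference was 0.04 ± 0.08 (limma adjusted p = 0.797), with a 95% interval from -0.16 to 0.23. In folds this interval runs from 0.90 to 1.18, aged over young, and holds for the main scaling. The difference was -0.02 under quantile normalization and -0.05 with slide row as a block, but 0.15 in the authors' values, 0.18 with the median of detected probes, 0.24 without scaling and 0.45 with the 75th percentile over all probes.

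miR-15b-5p, the partner of miR-16-2 in Smc4, read 0.11, 0.07 and 0.26 at 2 months and -0.13, -0.16 and -0.12 at 20 months. The groups did not overlap, and the aged arrays spread less (SD 0.02) than the young ones (SD 0.10). It stood lower by -0.28 ± 0.08 (log2 ± SE, n = 3 per group, 1.21-fold), with a 95% interval from -0.47 to -0.09. The limma adjusted p was 0.0814 and the unadjusted limma p 0.0115, the 26th smallest of 193. It is thus reported as not passing. Over the alternatives the limma adjusted p ranged from 0.0564 to 0.955 and never passed the threshold. The difference was -0.14 when arrays were scaled to the median of detected probes, -0.16 in the authors' processed values and 0.13 when they were scaled to the 75th percentile over all probes. Without aged array 1, 2 or 3 it was -0.28, -0.27 and -0.29 (limma adjusted p = 0.103, 0.17 and 0.126). The percentile over all probes was 4.3 to 5.6 intensity units and lay among undetected probes.

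miR-195a-5p, whose hairpin lies beside that of miR-497, read 0.38, 0.35 and 0.48 at 2 months, and 0.34, 0.38 and 0.39 at 20 months. The aged levels began below the young range and ended inside it. The difference was -0.03 ± 0.07 (limma adjusted p = 0.798; 95% interval -0.21 to 0.14), and its sign turned, to 0.01 to 0.38, with 4 of the scalings tried and in the authors' processed values.

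miR-497-5p, encoded upstream of miR-195a on the same strand, read 0.21, 0.21 and 0.35 on the young arrays and 0.15, 0.16 and 0.20 on the aged arrays. The groups did not overlap, but the gap was narrow beside the spread of the young arrays (SD 0.08). The difference was -0.09 ± 0.07 (limma adjusted p = 0.481; 95% interval -0.27 to 0.09). It was 0.05 when scaled to the median of detected probes and 0.03 in the authors' values. Young array 3 held the highest young level of each of the 5 members, and without it the difference of miR-497-5p was -0.04 (limma adjusted p = 0.787).

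**Figure D1:**
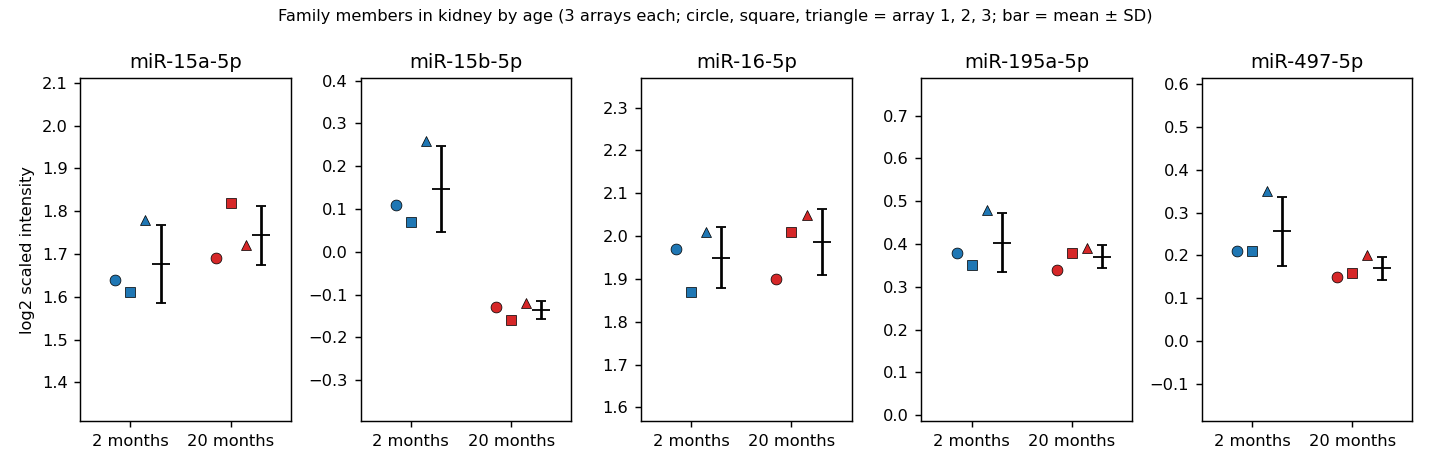
Level of each member (log2 of intensity relative to the array's 75th percentile of detected probes) on 3 young and 3 aged arrays, each panel spanning the same range; circle, square and triangle mark arrays 1, 2 and 3, and the bar is the mean ± SD. miR-15b-5p is the member whose aged points (-0.16 to -0.12) lie clearly below its young points (0.07 to 0.26).

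Placed among the 193 tested miRNAs by signed difference, miR-15b-5p had 48 miRNAs below it and miR-15a-5p had 145. The members thus spread over the middle of the series and not over either end.

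**Figure D2:**
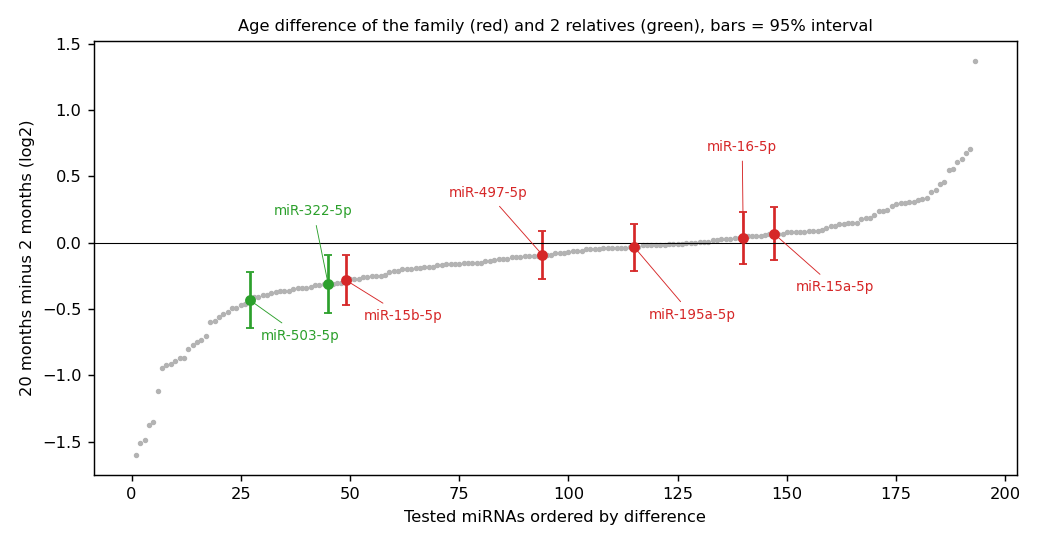
Aged minus young difference (log2) of all 193 tested miRNAs in rank order, with the members in red and the relatives miR-322-5p and miR-503-5p in green; bars are 95% intervals of limma. The interval of miR-15b-5p (-0.47 to -0.09) lies below 0, and those of the other 4 members include 0.

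Ratios within an array do not depend on the scaling between arrays, apart from quantile normalization, and those that hold miR-15b-5p differed most between the ages. Each was tested with an exact two-sided permutation test, which cannot go below p = 0.1 with 3 arrays against 3. The log2 ratio of miR-15a-5p to miR-15b-5p was 1.52, 1.55 and 1.52 at 2 months and 1.82, 1.98 and 1.84 at 20 months. All aged arrays lay above all young arrays, and the shift of 0.35 exceeded the SD of either group (0.02 young, 0.09 aged) (exact permutation p = 0.1, 0.133 adjusted over the 4 ratios). The members of this pair come from different loci.

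Within the Smc4 cluster the log2 ratio of miR-15b-5p to miR-16-5p was -1.86, -1.80 and -1.75 at 2 months and -2.03, -2.17 and -2.17 at 20 months. It shifted by -0.32 (exact permutation p = 0.1, 0.133 adjusted), with no overlap between ages, and by -0.20 under quantile normalization. Within the Dleu2 cluster the log2 ratio of miR-15a-5p to miR-16-5p was -0.34, -0.25 and -0.23 at 2 months and -0.21, -0.19 and -0.33 at 20 months. These overlapped, with a shift of 0.03 (exact permutation p = 0.5, 0.5 adjusted). As miR-16-5p sums both loci, neither ratio isolates 1 cluster.

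Within the cluster on chromosome 11 the log2 ratio of miR-195a-5p to miR-497-5p was 0.17, 0.14 and 0.13 at 2 months and 0.18, 0.22 and 0.19 at 20 months. The shift of 0.05 was small and free of overlap only by the gap from 0.17 (young) to 0.18 (aged) (exact permutation p = 0.1, 0.133 adjusted). Under quantile normalization and with the brightest probe of each miRNA the shift was 0.03 (exact permutation p = 0.5 and 0.3). As a description over 6 arrays that share their scaling, the Pearson r of this pair was 0.90, that of miR-15b-5p and miR-497-5p from different clusters 0.89, and that of the clustered miR-15b-5p and miR-16-5p -0.06.

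One aged array, number 1, shared the slide row of the young arrays and kept the direction of these ratios. Within that row the ratio of miR-15a-5p to miR-15b-5p shifted by 0.29 and that of miR-15b-5p to miR-16-5p by -0.23. The difference of miR-15b-5p was -0.27 ± 0.13 within the row (limma adjusted p = 0.167) and -0.27 ± 0.13 with row as a block (limma adjusted p = 0.307). Within the row and with the block the other members stood at 0.02 (miR-15a-5p), -0.05 (miR-16-5p), -0.07 (miR-195a-5p) and -0.11 (miR-497-5p). In both fits the age difference rests on that array.

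**Figure D3:**
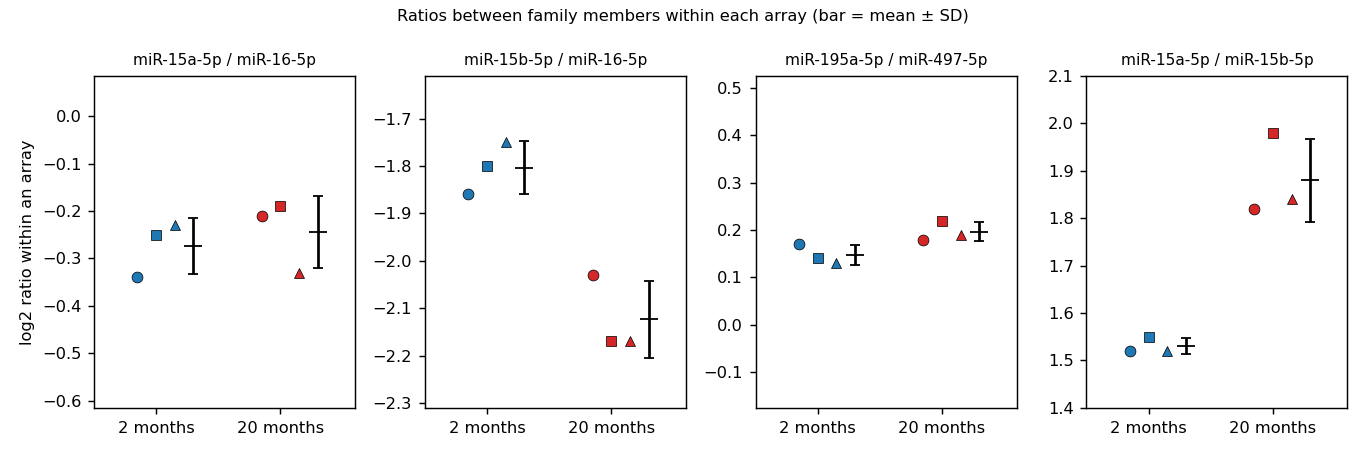
Log2 ratio of 2 members within each array for 4 pairs, at 2 and 20 months; symbols mark arrays 1 to 3 and the bar is the mean ± SD, with all panels of equal span. The ratios with miR-15b-5p shift by -0.32 (to miR-16-5p) and 0.35 (miR-15a-5p over it), against 0.03 and 0.05 for the other pairs.

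Each member was read by 2 probes, with 15 to 20 spots kept per probe and array. Both probes of miR-15b-5p gave the same picture. Its brighter probe read -0.51, -0.56 and -0.36 in young and -0.72, -0.78 and -0.74 in aged kidney, and its dimmer probe -1.41, -1.45 and -1.25 against -1.70, -1.67 and -1.62. Neither probe overlapped between ages, and nor did the dimmer probe of miR-497-5p, also lower in aged kidney. The share of all probes without overlap was not counted. Among all tested miRNAs 20.2% were lower without overlap. A fit of limma over 354 probes was added after the data were seen. In it the probes of miR-15b-5p differed by -0.27 ± 0.08 and -0.30 ± 0.08 (limma adjusted p = 0.0991 and 0.0916), where 1.69% of probes passed as lower. The probes of miR-15a-5p stood at 0.07 and 0.07 and those of miR-16-5p at 0.03 and 0.08. Those of miR-195a-5p stood at -0.05 and -0.00 and those of miR-497-5p at -0.07 and -0.12. The 2 probes of a member thus differed from each other by less than 1 SE in each case. The coefficient of variation between spots of a probe ranged from 2.26% to 20.4%, the latter on a probe of miR-15b-5p. The files hold no probe sequences, so which mismatches the probes resolve was not examined.

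**Figure D4:**
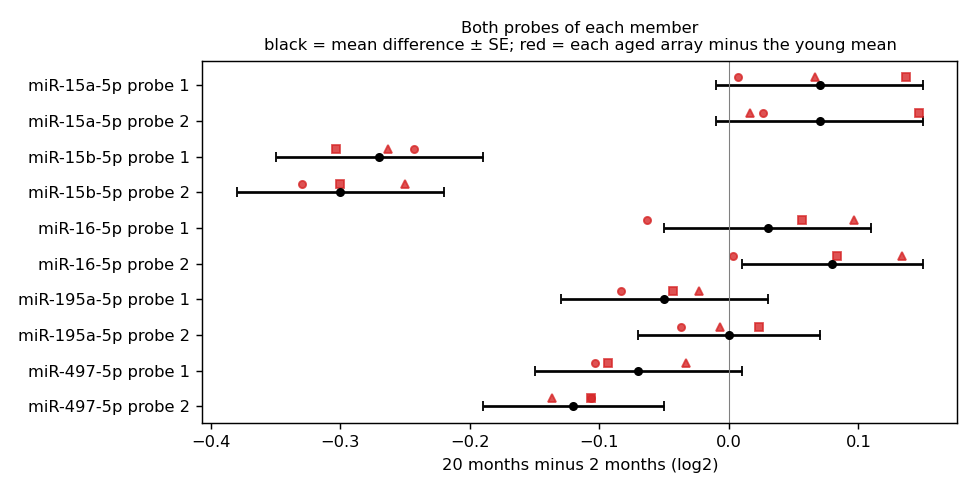
Aged minus young difference (log2) for the 2 probes of each member, brighter probe first; black points with bars are the fitted difference ± SE, and red symbols are aged arrays 1 to 3 (circle, square, triangle) minus the mean of the young arrays. All 6 aged readings of miR-15b-5p lie below 0, near the fitted -0.27 and -0.30.

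The opposite arms of the hairpins, which are usually degraded and which would tell the loci apart, were below detection. miR-15a-3p, miR-15b-3p, miR-16-1-3p, miR-16-2-3p, miR-195a-3p and miR-497-3p were well above background on 0 of 6 arrays. Their summed intensity was at most 49 units before scaling (miR-15a-3p), against at least 1072 for miR-15b-5p. miR-16-1-3p and miR-16-2-3p, which belong to 1 hairpin each, are shown because a signal on them would have separated the sources of miR-16-5p.
miR-16-1-3p: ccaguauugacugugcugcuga
miR-16-2-3p: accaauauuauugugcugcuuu
No age difference is given for these arms, and the share of each locus in miR-16-5p was not measurable here.

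The seed is wider than the 5 members. RefSeq lists 5 other mouse miRNAs with it, miR-195b, miR-322-5p, miR-6342, miR-6353 and miR-6419, all of which are on the array. miR-322-5p, the mouse form of human miR-424 and encoded on the X chromosome, was well above background on 6 of 6 arrays and the other 4 on 0. miR-195b and miR-322-5p are shown to place an undetected and a detected relative beside the members.
miR-195b: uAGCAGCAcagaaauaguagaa
miR-322-5p: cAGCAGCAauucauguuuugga
miR-195b shares 18 of 21 positions with miR-195a-5p (the differences are U17G, G19A and C21A, miR-195a-5p first), and its summed intensity did not exceed 2.21 units where miR-195a-5p gave at least 1477.

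miR-322-5p read -0.53, -0.66 and -0.40 at 2 months and -0.92, -0.79 and -0.83 at 20 months, without overlap. It stood at -0.31 ± 0.09 (limma adjusted p = 0.0864), close to miR-15b-5p. Its neighbour miR-503-5p differs from the seed at its last base, and is known to repress cyclin D1 as well. miR-503-5p stood at -0.43 ± 0.09 (log2 ± SE), with aged levels of -4.97, -4.88 and -4.83 near the floor of -5.22. It was well above background on 3 young arrays and 1 aged array. It thus passed the detection filter through the young arrays alone, where it was higher, so no p-value is given. Its limma call with the main processing was lost in 18 of 23 alternatives, among them those without young array 1, 2 or 3 or aged array 2. Of the 6 detected miRNAs with the seed, miR-15b-5p and miR-322-5p had the most negative differences, and neither passed the threshold.

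Other miRNAs that act on the cell cycle were counted from 2 lists. Of 13 miRNAs known to slow division, 11 were tested, of which 1 rose and 1 fell, beside 4.15% and 3.63% of all tested miRNAs. At an unadjusted p under 0.05 there were 3 of 11, beside 25.4% of all: miR-34a-5p higher, and miR-322-5p and miR-503-5p lower. The median was 0.09, beside -0.08, with 8 positive and 3 negative differences. The riser was miR-34a-5p, a target of p53, at 0.71 ± 0.12 (limma adjusted p = 0.0235), but the call was lost in 8 of 24 alternatives (limma adjusted p 0.0052 to 0.397), among them those without young array 2 (0.0752), young array 3 (0.09) or aged array 2 (0.0591). The one that fell was miR-503-5p. It passed the detection filter through the young arrays alone, where it was higher, so its place in both counts is not read as a fall with age. The shares of all tested miRNAs likewise include some that passed through 1 age alone, such as miR-124-3p. let-7b-5p and miR-26a-5p, which also repress cyclins or their kinases, stood at 0.19 ± 0.13 and 0.15 ± 0.09. Of 10 miRNAs known to repress inhibitors of division, such as miR-17-5p, 9 were tested and 0 passed by limma, with 0 at an unadjusted p under 0.05 and a median of -0.01, beside 7.77%, 25.4% and -0.08 over all tested miRNAs. miR-17-5p stood at -0.03 ± 0.12 and miR-106b-5p at -0.12 ± 0.08, where 6 of the 9 differences were negative and 3 positive.

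Of the blood-cell miRNAs, 0 of 3 erythroid and 0 of 4 leukocyte ones passed by limma, beside 7.77% of all tested miRNAs. At an unadjusted p under 0.05 there were 3 erythroid ones, all lower in aged kidney, and 2 leukocyte ones, both higher, beside 25.4% of all. miR-16-5p and miR-15 members are known to be abundant in blood cells, so these values are given with them. miR-451a, abundant in red cells, read 3.15, 2.98 and 2.98 at 2 months and 2.76, 2.69 and 2.62 at 20 months, a difference of -0.34 ± 0.08 (limma adjusted p = 0.0528). It passed in 3 of 24 alternatives, and miR-144-3p stood at -0.73 ± 0.25 (limma adjusted p = 0.124). The array signal of the 3 erythroid miRNAs came mostly from miR-451a, with a young mean of 3.03 beside -1.18 (miR-144-3p) and -3.68 (miR-3107-5p). Their summed level thus largely repeats miR-451a, and was 3.07 to 3.23 in young and 2.67 to 2.84 in aged kidney (log2, all 3 detected). That of the 4 tested leukocyte miRNAs of 5 was -0.84 to -0.65 in young and -0.49 to -0.14 in aged kidney, with miR-223-3p at 0.55 ± 0.13 (limma adjusted p = 0.051, under the threshold in 12 of 24 alternatives) and miR-142-3p at 0.46 ± 0.17 (limma adjusted p = 0.14). The fifth, miR-150-5p, was detected on 4 arrays. The part of blood cells in the levels of the family was not tested.

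By the pattern over the 6 arrays, the miRNAs most like the mean of the members were miR-25-3p (Pearson r = 0.95), miR-196b-5p (0.94) and miR-10b-5p (0.93). Taken one by one, miR-15b-5p was most like miR-28a-5p (r = 0.97), which stood at -0.27, and miR-16-5p was most like miR-24-3p (r = 0.98), which stood at 0.02. The nearest to miR-15a-5p was miR-21a-5p (0.93), to miR-195a-5p miR-25-3p (0.95) and to miR-497-5p miR-872-5p (0.96). These are descriptions over 6 arrays of miRNAs that share the scaling of each array.

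A scaling constant per array moves all miRNAs alike, so differences relative to the median of all tested miRNAs do not depend on it. Relative to the median of all tested miRNAs, miR-15b-5p stood at -0.20 and miR-15a-5p at 0.15 with the main processing, with miR-16-5p at 0.12, miR-195a-5p at 0.05 and miR-497-5p at -0.00. Quantile normalization, normexp and the slide row block can change these values, and gave miR-15b-5p -0.22, -0.16 and -0.21. It was -0.28 without a detection filter and -0.23 over miRNAs detected on all 6 arrays. miR-15b-5p was the lowest member in each of these, while the order of others changed: under quantile normalization miR-195a-5p (0.00) stood above miR-16-5p (-0.02).

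**Figure D5:**
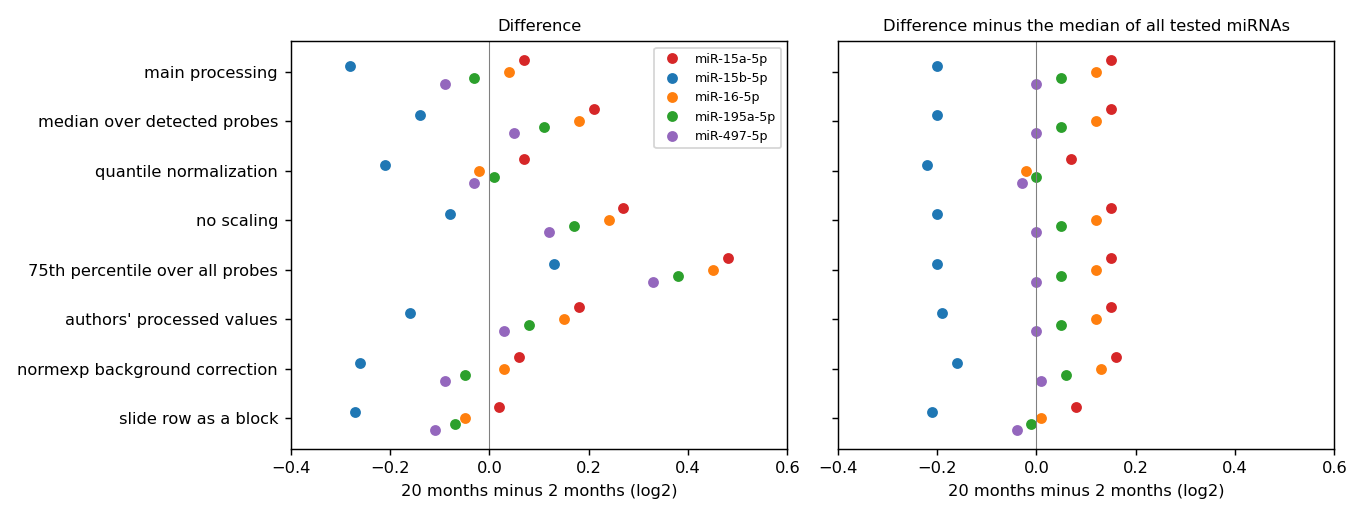
Age difference (log2) of the 5 members under 8 settings of scaling, background correction or blocking, as such (left) and after subtracting the median difference of all tested miRNAs (right). On the left the whole family moves with the scaling, up to 0.48 for miR-15a-5p, and on the right, where scaling constants cancel by construction, miR-15b-5p lies at -0.22 to -0.16.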

How the data were processed

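The deposited spot values are Cy3 fluorescence intensity, background-subtracted by Agilent Feature Extraction 11.5.1.1 and unscaled between arrays, per the file headers (design 046065). Deposited flags, per the file headers, mark spots well above background, outlier or saturated. The authors' processed table holds log2 values, which matched the software's total gene signal on a log2 scale after 1 constant per array was taken off (largest departure 1e-05 over 1268 features); what that constant is was not given in the sources used here.

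Spots marked as outliers were left out, and the remaining spot intensities of each probe were averaged. Probes were called detected when more than 50% of kept spots were marked well above background. Scaling used the 75th percentile of the 315 probes detected on every array; the scaled probes of a miRNA were added up, floored at -5.22 (log2) and logged. The 193 miRNAs tested had a probe detected throughout at least 1 age group. The ages were compared by lmFit and eBayes (limma 3.58.1, R 4.3.3), with Benjamini-Hochberg adjustment over all 193 and a threshold of 0.05. The procedure was tested on simulated data with planted differences larger than those of the members and no effect of slide row. That test does not bear on differences as small as those of the members. Arrays of 1 group differed beyond spot noise on 56.2% to 78.1% of the 315 probes, which does not show separate preparations; that rests on the labels.

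The members and lists were chosen with earlier results of these data known. Named were the members, their opposite arms, RefSeq miRNAs with the seed, miR-503-5p, list members past the threshold, the most similar miRNAs by Pearson r, and blood-cell markers; let-7b-5p, miR-26a-5p, miR-17-5p and miR-106b-5p are examples chosen after their values were seen. Normexp used median spot signals (offset 50). Alternatives varied scaling, background correction, probe summary, filter, floor, limma settings, slide row, replicate block and arrays left out.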

Additional observations from a re-analysis of the deposited data

How the results depend on the processing

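Across 24 alternatives 0 members passed the threshold in either direction by limma, with 0 or 1 at an unadjusted p under 0.05. miR-15a-5p kept its sign in all 26 fits, the 2 probe-level ones included, and miR-15b-5p in 25. Signs turned with scaling. Scaled to the 75th percentile over all probes, miR-15b-5p stood at 0.13, miR-195a-5p at 0.38, miR-497-5p at 0.33, miR-322-5p at 0.10 and miR-451a at 0.07 (medians 0.38 for the family, 0.33 for all). Scaled to the median of detected probes, miR-195a-5p stood at 0.11 and miR-497-5p at 0.05 (medians 0.11 and 0.06), without scaling at 0.17 and 0.12 (medians 0.17 and 0.12), and in the authors' values at 0.08 and 0.03 (medians 0.08 and 0.03). Under quantile normalization miR-16-5p stood at -0.02 and miR-195a-5p at 0.01 (median of all 0.00). miR-16-5p was -0.00 in the total gene signal and -0.05 both with slide row as a block and within slide row 1. A scaling constant per array moves all miRNAs alike, and the medians moved with the members. The cause of the turns under the other settings was not tested.

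Counts over all tested miRNAs, 8 higher and 7 lower, became 18 and 3 with the median, 13 and 1 with quantile normalization, 1 and 1 without scaling, 4 and 0 with normexp, 10 and 0 in the authors' values, 6 and 2 in the total gene signal, 4 and 2 without a filter (median of all 0.00) and 2 and 3 with slide row as a block. At an unadjusted p under 0.05 limma gave 18 lower with normexp and 10 lower in the authors' values. The replicate block gave 2 and 1 and changed no call of a member. Deviations of same-numbered arrays correlated at 0.12, -0.58 and 0.31. With 3 arrays per group the deviations depend on each other, so these values cannot show whether the numbers pair the samples.

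Leaving out 1 array gave 3 to 12 higher and 2 to 27 lower; the extremes were without young replicate 2 (3 higher) and without aged replicate 1 (12 and 27). miR-15a-5p ranged from 0.03 to 0.12, miR-15b-5p from -0.32 to -0.22, miR-16-5p from -0.00 to 0.08, miR-195a-5p from -0.06 to 0.01 and miR-497-5p from -0.11 to -0.04, with family medians of -0.06 to 0.01 and medians of all of -0.12 to -0.04. The ratio of miR-15a-5p to miR-16-5p shifted by -0.00 to 0.07, of miR-15b-5p to miR-16-5p by -0.36 to -0.29, of miR-195a-5p to miR-497-5p by 0.04 to 0.06 and of miR-15a-5p to miR-15b-5p by 0.30 to 0.38. Over all 15 alternatives these were -0.00 to 0.09, -0.36 to -0.20, 0.03 to 0.07 and 0.29 to 0.38. Opposite arms were not detected, so no alternative that kept a filter tested them. With 3 arrays per group the permutation tests could not pass the threshold, which says nothing about stability.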
